A study of Carassius gibelio with 26 samples.

Results

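Chromosome 47 of the goldfish genome carried 580 annotated genes, of which 340 had a mean of at least 1 CPM, a CPM being a count divided by the library total and multiplied by 1e6, over 26 testis libraries of the gibel carp, Carassius gibelio. These 340 genes are described here, out of 34304 genes of the genome that reached the same mean level and 62131 that were annotated. They were chosen from their own levels and from the position of their first exon. The chromosome itself was chosen because the levels of its genes stood apart in 2 of the males, so those levels are given as a description without a test. The first 6 Mb held 154 of the genes and the rest 186. The member with the lowest mean had 1.00 CPM and the highest gene left out had 0.988 CPM, with 7 members between 1 and 1.1 CPM and 7 other genes between 0.9 and 1 CPM.

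The gibel carp belongs to a genus with duplicated chromosome sets, in which many genes have a close relative on a partner chromosome. It occurs as diploids and triploids, and triploid females can reproduce by gynogenesis, in which a sperm starts development of the egg and its chromosomes are generally not passed on. In vertebrates the amount of mRNA from an autosomal gene usually follows the number of its copies, so that the loss or gain of 1 copy of a chromosome is often seen as a small shift in the same direction of many neighbouring genes. Copy number of DNA was not analysed here.

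Each library came from the testis of 1 male aged 2 years. The study set genotypic diploid males against triploid males whose sex had changed, to look for genes of reproduction and of sex determination. The 10 diploid males (2n) came from crosses of diploid parents kept at 22 °C. All 16 triploid males (3n) came from gynogenetic eggs started with sperm of gibel carp, Cyprinus carpio or Abramis brama, and the labels do not say which sperm was used for which male. Group 1 held 5 triploid males sampled at 28-31 °C, from a mother whose young changed sex at high temperature and not at 22 °C. Group 2 held 5 triploid males sampled at 28-31 °C and group 3 held 6 sampled at 22 °C, each from a mother whose young often changed sex at 22 °C as well. Ploidy, mode of reproduction, sex reversal and, for groups 1 and 2, temperature differ together between the triploids and the 2n males and cannot be told apart. Males of a group may share a mother, so p-values measure the spread between these males. The library names hold a further number, whose meaning the labels do not give. It was 14 for 2n replicates 1, 2, 5, 6 and 7, 106 for replicate 3 and 108 for replicates 4, 8, 9 and 10, and in group 3 it was 12 for replicates 1 and 2 and 11 for the other 4. In group 1 it was 4 for replicates 1 and 5, 6 for replicate 2 and 5 for replicates 3 and 4, and in group 2 it was 11 throughout. Groups 1 and 2 thus differ together in the kind of mother and in this number, which cannot be told apart. A last number, which reads as the temperature, was 31 for group 1 replicates 1 to 3, 28 for group 1 replicates 4 and 5 and 31 for all of group 2.

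Libraries held 15375923 to 29503544 counted fragments, and 2n replicate 7 was the shallowest. Every member but 1 had at least 1 count in every library, and 0 members were at 0 in a whole group. Levels were scaled with the trimmed mean of M values (TMM), whose factors were 1.51 and 1.45 in group 1 replicates 1 and 2 and 0.777 to 1.20 in the other 24 libraries. These 2 libraries stood apart. Counts of members for group 1 are also given without them, and so are single genes that then lost a call. The gene identifiers could not be paired with gene names, so the testis label could not be checked against markers, genes are given by identifier or position, and no function is attributed to any of them. In bulk testis RNA, fewer cells of a type and less RNA per cell cannot be told apart.

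The members of chromosome 47 resembled other genes in build. Their median summed exon length was 2182.5 bp against 2234.5 bp over all genes at the same mean level, and both had a median of 11 exons. Single-exon genes made up 2.65% of members and 2.66% of all. The plus strand held 48.8% of members and 50.2% of all. The median of the members' mean levels was 12.7 CPM, against 9.49 CPM over all genes.

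For each male, a deviation was computed per gene as its log2 CPM minus the median log2 CPM of the remaining males of the group, with groups 2 and 3 treated as 1 set. It was then centred so that the median over the 34304 genes was 0. In 24 of the 26 males the median deviation of the members lay between -0.08 and 0.06 in the first 6 Mb and between -0.08 and 0.09 in the rest. The 5 males of group 1 had whole-chromosome medians of -0.03 to 0.03, the 5 males of group 2 -0.01 to 0.03, and the 5 remaining males of group 3 0.02 to 0.06. The 9 remaining 2n males lay between -0.07 and 0.03. Only 2 males fell outside these ranges. Group 3 replicate 2 had a median deviation of -0.49 in the first 6 Mb and -0.49 in the rest. The male 2n replicate 7 had 0.58 in the first 6 Mb and -0.10 in the rest. For scale, levels in a ratio of 2 to 3 differ by -0.58 and levels in a ratio of 3 to 2 by 0.58 on the log2 scale.

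**Figure D1:**
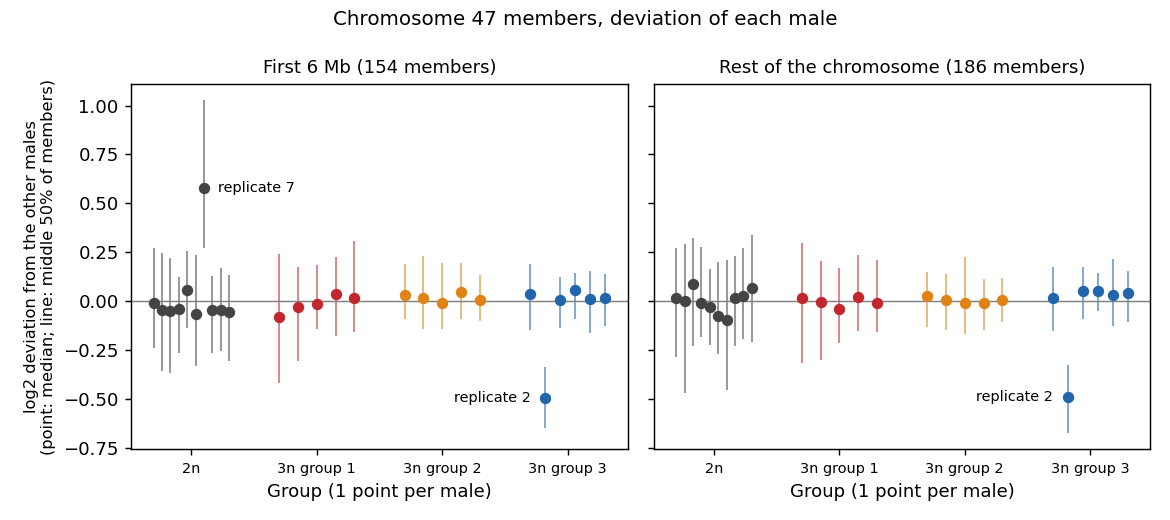
Median log2 deviation of the members of chromosome 47 in each of the 26 males, for the first 6 Mb (154 members) and the rest (186 members), by group. Points are medians and lines hold the middle 50% of members. Group 3 replicate 2 lies near -0.49 for both stretches, while 2n replicate 7 lies at 0.58 for the first 6 Mb alone.

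In group 3 replicate 2, the lower level ran along the whole chromosome. The median ratio to the other males was 0.710, and the middle 50% of members ran from -0.65 to -0.34, against -0.13 to 0.11 for all genes. Of the 340 members, 328 lay below 0 and 12 above, of which 2 were more than 0.25 above. Most members, 256 or 75.3%, were between 0.25 and 1 lower on the log2 scale, and 24 were lower by more than 1. The deviation was therefore spread over the members and did not rest on a few genes.

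This male had the lowest level of the 11 males of groups 2 and 3 for 246 of the 340 members, or 72.4%, against 6.52% of all genes. The share was 74.0% in the first 6 Mb (114 of 154) and 71.0% in the rest (132 of 186). Because the chromosome was chosen for this male's levels, the share describes the members and is no test.

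All 16 windows of 1 Mb had a median below -0.25 in group 3 replicate 2. In the 14 windows with at least 10 members, the medians ran from -0.60 in the window of 6 to 7 Mb to -0.41 in that of 4 to 5 Mb. The window of 3 to 4 Mb, with 6 members, had -0.38 and that of 9 to 10 Mb, with 8 members, -0.26. No window of this chromosome returned to 0, and neither end was set apart. Of the 1116 windows of the genome with at least 10 genes, the 14 of chromosome 47 were the lowest in this male. Of these windows, those on the other chromosomes ran from -0.20 to 0.19. When windows with 5 to 9 genes were also counted, the longest run of neighbouring windows past 0.25 was 16 on chromosome 47 and 1 elsewhere, on chromosome 15. The medians of chromosomes 22 and 29 in this male were -0.04 and 0.04.

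**Figure D2:**
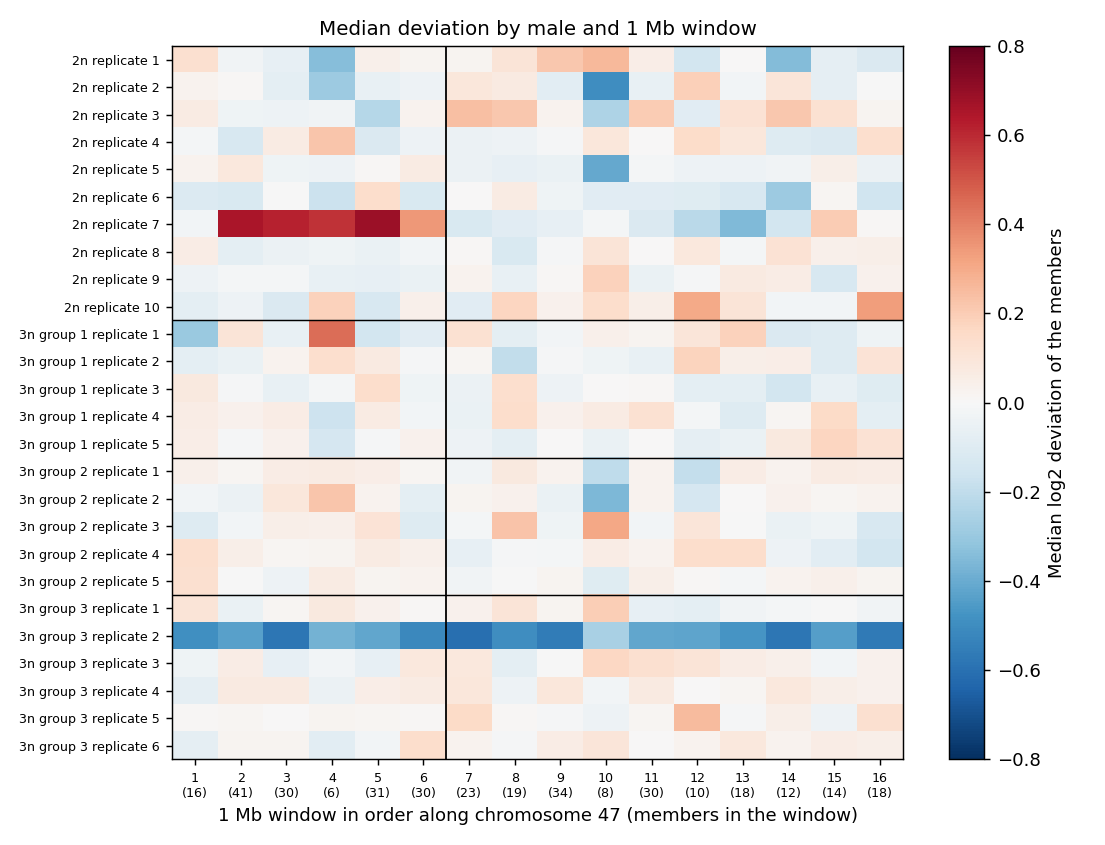
Median log2 deviation per 1 Mb window along chromosome 47, with 1 row per male and colour for the median (red higher, blue lower). Group 3 replicate 2 is below -0.25 in all 16 windows, and 2n replicate 7 is above 0.25 in the windows from 1 to 6 Mb.

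Single members show the size of the difference in counts. The gene at 47:1773108-1780266 (plus strand, 7 exons) had 25.98 CPM from 514 counts in group 3 replicate 2, against 47.4 to 72.6 CPM in the other 10 males of groups 2 and 3. Its level was outside the range of the others, with a deviation of -1.15. The gene at 47:3633279-3839105 (minus strand, 90 exons) had 40.9 CPM from 809 counts, against 68.6 to 108 CPM, a deviation of -1.05. A member near the median of the chromosome, at 47:2756682-2760343 (minus strand, 10 exons), had 60.9 CPM from 1205 counts, against 73.7 to 100.4 CPM, a deviation of -0.50. The ranges did not overlap for any of these 3 genes, which were picked after their values were seen. Of the 195 members with a mean level of at least 10 CPM, the gene at 47:7135252-7151777 was the one that was not lower in this male. It had 193 CPM, within the range of 121 to 304 CPM of the others.

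The difference was of similar size against each male. Against each of the other 5 males of group 3, the median difference was -0.50 to -0.46 in the first 6 Mb and -0.53 to -0.47 in the rest. Against replicate 1, which shares the number 12 in its library name, it was -0.46 and -0.50. Split by level, the medians were -0.40 for 89 members under 2 on the log2 CPM scale, -0.47 for 110 members from 2 to 4, -0.52 for 102 from 4 to 6 and -0.49 for 39 of at least 6. The 9 single-exon members had a median of -0.50 and the 331 others -0.49. Members on the plus strand had -0.48 and those on the minus strand -0.50. The lower level was thus seen at every level of expression, on both strands and with or without introns.

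Shares of the raw counts gave the same picture without any scaling factor. In group 3 replicate 2 the first 6 Mb took 0.264% of all counts, against 0.384% to 0.399% in the other males of group 3. The rest took 0.551%, against 0.756% to 0.861%. The 240 genes of the chromosome below the mean level of 1 CPM, which had no part in the choice of members, summed to 23.5 CPM in this male and to 28.3 to 36.3 CPM in the other 10 males of groups 2 and 3. That is a ratio of 0.752 to their median of 31.2 CPM. The ratio was 0.611 over the 83 such genes of the first 6 Mb and 0.865 over the 157 of the rest, where the sum of 15.6 CPM was just under the range of 15.8 to 22.8 CPM.

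**Figure D3:**
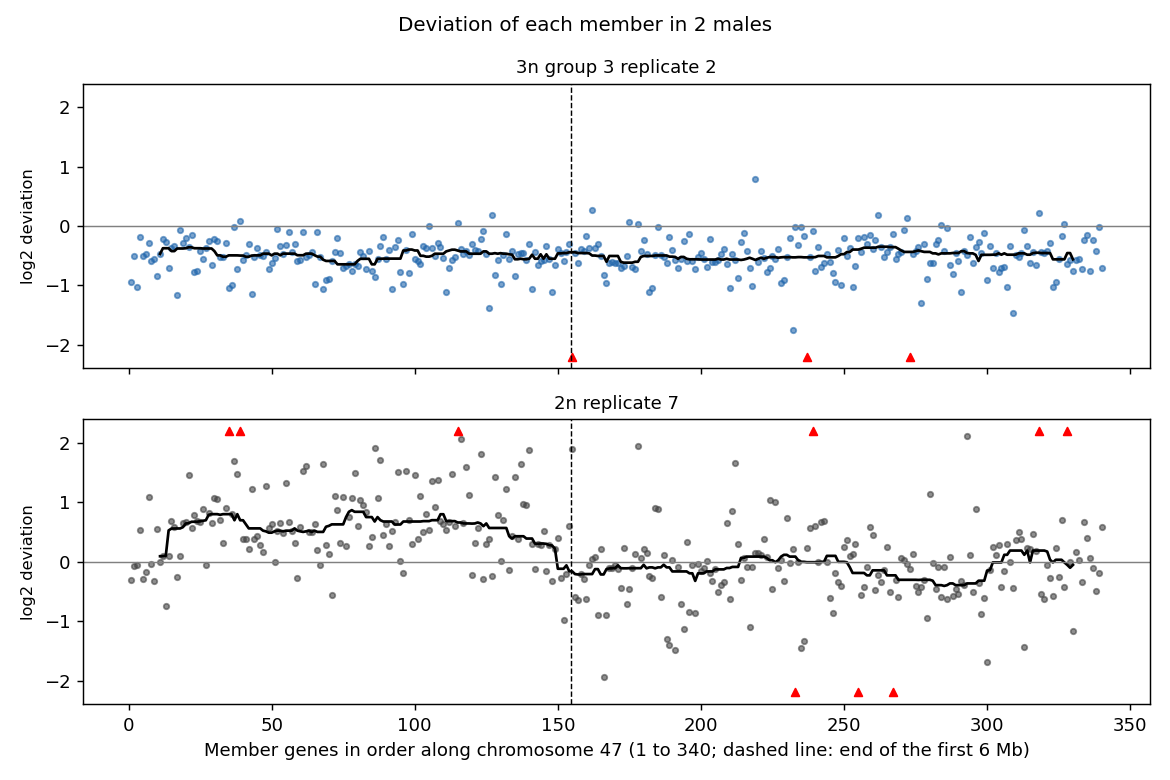
Log2 deviation of each of the 340 members in order along chromosome 47, for group 3 replicate 2 and 2n replicate 7. In the first male 328 of 340 members lie below 0 along the whole length, and in the second 99 of the 108 members between 1 and 5 Mb lie above 0.

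In 2n replicate 7, the higher level was confined to 1 stretch near the start of the chromosome, while the windows past 6 Mb ran from -0.36 to 0.20. The first window, up to 1 Mb, had a median of -0.02 (16 members). The windows from 1 to 5 Mb had 0.65 (41 members), 0.62 (30), 0.58 (6) and 0.69 (31). The window from 5 to 6 Mb had 0.35 (30 members), and that from 6 to 7 Mb had -0.12 (23 members). In bins of 0.5 Mb, the median was 0.05 between 0.5 and 1 Mb (8 of 14 members above 0) and 0.68 between 1 and 1.5 Mb (14 of 16). At the other side it was 0.71 between 5 and 5.5 Mb (15 of 17), 0.22 between 5.5 and 6 Mb (7 of 13) and -0.21 between 6 and 6.5 Mb (4 of 11). The higher stretch therefore began near 1 Mb and ended between 5.5 and 6 Mb, at the resolution that these members allow.

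From 1 to 5 Mb, a stretch set from these values, the 108 members had a median deviation of 0.65, a ratio of 1.57 to the other 2n males. The middle 50% of members ran from 0.39 to 1.10, against -0.34 to 0.38 for all genes of this male. Of the 108 members, 99 were above 0 (91.7%), 33 by more than 1 and 60 (55.6%) by 0.25 to 1, while 4 were lower by more than 0.25. The other 9 2n males had medians of -0.08 to 0.05 over the same stretch. The spread between genes was wider in 2n replicate 7 than in group 3 replicate 2, both on this chromosome and over the genome.

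The male 2n replicate 7 had the highest level of the 10 diploid males for 66 of the 108 members from 1 to 5 Mb (61.1%), against 14.8% of all genes. Over the whole first 6 Mb it was highest for 86 of 154 members (55.8%), and over the rest for 27 of 186 (14.5%), a share like that of all genes. In the rest of the chromosome this male therefore stood at the top of its group no more often than elsewhere in the genome.

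Genome-wide, windows set this stretch in context. Of the 1116 windows, 5 had a median above 0.6 in 2n replicate 7, and 3 of the 5 were on chromosome 47. Windows elsewhere ran from -1.13 to 0.65, so single windows of that size also occurred on other chromosomes. Among windows with at least 5 genes, the longest run of neighbours past 0.25 was 5 windows on chromosome 47 and 3 elsewhere, on chromosome 28, where the windows were lower. In the other 9 diploid males the longest run anywhere was 2 or 3 windows.

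**Figure D4:**
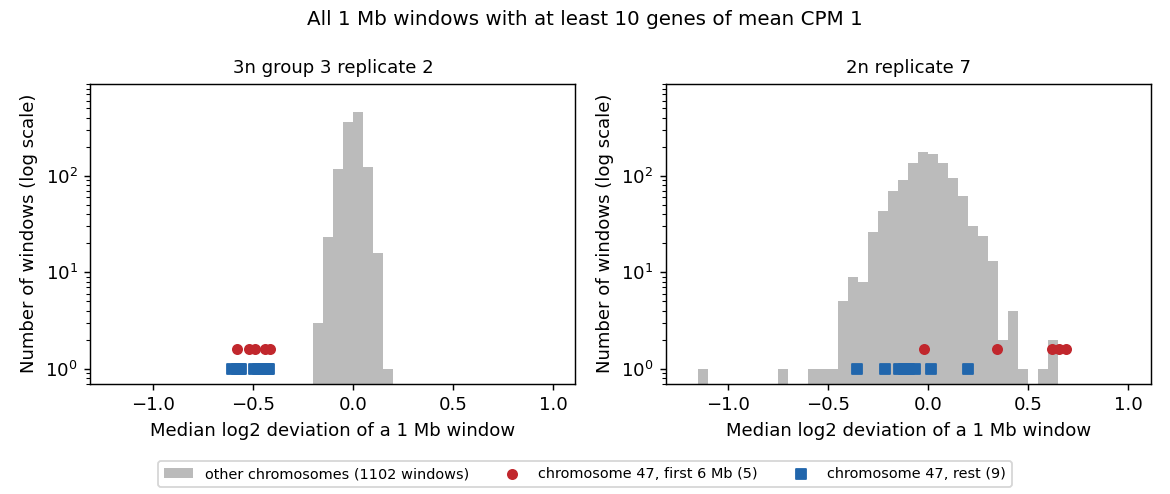
Median log2 deviation of the 1116 windows of the genome with at least 10 genes in group 3 replicate 2 and 2n replicate 7. Grey bars count the windows of other chromosomes on a log axis, and points and squares mark single windows of chromosome 47 at a height without meaning. All 14 marked windows of group 3 replicate 2 lie below those of the other chromosomes, and 3 of the 5 windows above 0.6 in 2n replicate 7 are marked.

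Members of the stretch were higher by different amounts. The gene at 47:4635937-4641035 (plus strand, 14 exons) had 35.0 CPM from 511 counts in 2n replicate 7, against 6.59 to 25.0 CPM in the other 9 diploid males, a deviation of 2.07. The gene at 47:4814024-4820767 (plus strand, 6 exons) had 35.7 CPM from 521 counts, against 8.42 to 15.9 CPM, a deviation of 1.81. A member near the median, at 47:1863775-1884374 (minus strand, 26 exons), had 85.7 CPM from 1252 counts, against 39.2 to 73.2 CPM, a deviation of 0.65. In all 3 genes, picked after their values were seen, this male lay above every other diploid male. Of the 65 members of the stretch with a mean of at least 10 CPM, the one furthest in the other direction was at 47:2356597-2390668 (minus strand, 21 exons), with 19.04 CPM, within the range of 13.2 to 49.1 CPM of the others.

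Against each of the other 9 diploid males, the median difference of the 108 members was 0.57 to 0.76, and that of the members past 6 Mb was -0.18 to -0.02. The 4 males with the same number 14 in the library name gave 0.57 to 0.73. Split by level, the medians of the stretch were 0.67 for 24 members under 2 on the log2 CPM scale, 0.66 for 38 from 2 to 4, 0.57 for 35 from 4 to 6 and 1.10 for 11 of at least 6. The 4 single-exon members had a median of -0.01, too few to set against the others. The first 6 Mb took 0.605% of the raw counts of this male, against 0.414% to 0.456% in the other diploid males, and the rest took 0.668%, the lowest of the 10. The 55 genes between 1 and 5 Mb that fell below the mean level for members summed to 25.3 CPM, against 11.7 to 19.5 CPM, a ratio of 1.61 to the median. Past 6 Mb the same ratio was 0.944. The library is also the shallowest of the 26, and the part of depth in these values was not tested.

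The remaining 24 males gave 6 windows past 0.25 among 336 with at least 10 members, spread over 5 males. The furthest was the window of 13 to 14 Mb in 2n replicate 1, at -0.35 with 12 members. In 2n replicate 10, the windows of 15 to 16 Mb and 11 to 12 Mb had 0.33 and 0.30. None of these 24 males had neighbouring windows past 0.25 on chromosome 47.

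The 2 males with shifted levels on chromosome 47 were near the others of their groups on chromosomes 22 and 29, which stood apart in other males. Group 2 replicates 2 and 5 had medians of 0.34 and 0.33 on chromosome 22, and group 2 replicate 3 had -0.63 on chromosome 29. In these 3 males chromosome 47 had medians between -0.01 and 0.01. A run along the whole chromosome and a run along a stretch of it were both seen on chromosome 47, each in 1 male.

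Between the groups, the levels of the members were compared with edgeR's quasi-likelihood test over all 42352 genes with enough counts, with Benjamini-Hochberg adjustment and a threshold of 0.05. All 340 members were tested. The 42352 genes also include genes with a mean under 1 CPM, the limit set for members. Shares over all genes tested are therefore not shares over genes of like level. The fit holds all 26 males, the 2 shifted ones included, and each count is therefore also given without them where they move it by over 1.5 times.

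Group 1 differed from 2n in 115 members (33.8%), against 32% of all genes tested. In the first 6 Mb 12 members rose and 33 fell, and in the rest 29 rose and 41 fell. Over all genes 14.6% rose and 17.4% fell. The median log2 fold change of the members was -0.20 in the first 6 Mb and -0.11 in the rest, against -0.05 over all genes. Without 2n replicate 7 it was -0.08 in the first 6 Mb, with 19 members higher and 23 lower. In that fit 31.2% of members were called, beside 30.1% of all genes. Scaling by the upper quartile moved the share of higher members among those called from 35.7% to 62.5%, and the all-gene median of -0.05 became 0.12, so no direction is read from this split. Without group 1 replicates 1 and 2 the number of called members was 62, or 18.2%, beside 15.9% of all genes. Without replicate 1 alone, 21 members of the first 6 Mb fell, and 23.8% of members were called, beside 23.9% of all genes. Without replicate 2 alone, 27 members of the rest fell, and 24.7% of members were called, beside 23.3% of all genes. Of all genes, 12.8% and 11.9% fell in these 2 fits, so fewer calls were made over the whole genome. With the 2n males limited to number 108, 19 members of the first 6 Mb rose and 20 fell. Under that limit 30.3% of members were called, beside 31.3% of all genes.

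Group 2 differed from 2n in 120 members (35.3%), against 34.4% of all genes. In the first 6 Mb 14 members rose and 43 fell, and in the rest 22 rose and 41 fell, beside 13.7% and 20.7% of all genes. The medians were -0.16 and -0.13, against -0.11 over all genes. Without 2n replicate 7, 26 members of the first 6 Mb rose and 41 fell, with a median of -0.08. In that fit 41.8% of members were called, beside 36.5% of all genes. The chromosome was chosen in part for this male's levels, so the rise is not read as a result about the members. The number that rose there was 9, 7 and 9 without group 2 replicates 1, 3 and 5. The shares of all genes called in these fits are not given here, so these counts are not read as particular to the chromosome. With the 2n males limited to number 108, 32 rose there and 43 fell, and 37 rose and 59 fell in the rest. Under that limit 50.3% of members were called, beside 45.1% of all genes. The calls thus grew in number over the whole genome, from 34.4% with all males.

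Group 3 differed from 2n in 143 members (42.1%), against 43.7% of all genes. In the first 6 Mb 14 members rose and 53 fell, and in the rest 29 rose and 47 fell, beside 17.4% and 26.3% of all genes. The medians were -0.18 in the first 6 Mb and -0.17 in the rest, against -0.10 over all genes. Both shifted males enter this comparison. Without 2n replicate 7 the median of the first 6 Mb was -0.13, with 26 members higher and 54 lower, and without group 3 replicate 2 it was -0.11, with 20 higher and 47 lower. Without both it was -0.02, with 33 higher and 44 lower. The median of the rest was -0.09 without both, with 37 higher and 42 lower. Shares and medians of all genes in the fits without these males are not given here. The males were also those for which the chromosome was chosen, so these counts are not read as particular to it. With the 2n males limited to number 108, which leaves out replicate 7, 30 members of the first 6 Mb rose and 54 fell. The share of all genes called under that limit is not given here, so these counts are not read as particular to the chromosome. With group 3 limited to number 11, 31 members of the rest fell. The number of all genes called also dropped under that limit, as given below, so this count is not read as particular to the chromosome.

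Groups 2 and 3 differed in 0 members by edgeR's test, against 0% of all genes. At an unadjusted p under 0.05 there were 11 members, and 1090 of all genes (2.57%). DESeq2 called 0 members and 1 gene of the genome. The median log2 fold change of group 2 against group 3 was 0.06 in the first 6 Mb and 0.03 in the rest, and without group 3 replicate 2 it was -0.01 and -0.04.

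Group 1 differed from group 2 in 156 members (45.9%), against 46.7% of all genes. In the first 6 Mb 36 members were higher in group 1 and 33 lower, and in the rest 43 were higher and 44 lower, beside 24.9% and 21.8% of all genes. The medians were -0.03 and 0.08, against 0.10 over all genes. Under upper quartile scaling the share of higher members among those called went from 50.6% to 65.7%, and the all-gene median of 0.10 became 0.30. Without group 1 replicates 1 and 2, 85 members were called. The number of all genes called dropped as well, as given below, so this drop is not read as particular to the members. With all males in the fit, the share of called members was not far from that of all genes in any of the 5 comparisons. The genes tested include some of lower level than any member, so this is not a comparison at like level. With no filter on low counts, group 1 differed from 2n in 30.3% of members and 23.6% of all genes. Without both 2n replicate 7 and group 3 replicate 2 it was further off. Group 2 then differed from 2n in 43.5% of members, beside 34.9% of all genes. Group 1 then differed from 2n in 35.9% of members, beside 29.6% of all genes. For the other comparisons the shares without both males are not given here.

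The 3 comparisons with 2n share their control males, so their values are given side by side. Of the 340 members, 11 rose and 26 fell in all 3, and 128 passed in none of them. Of all 42352 genes tested, 951 rose and 1890 fell in all 3, and 14884 passed in none of them.

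**Figure D5:**
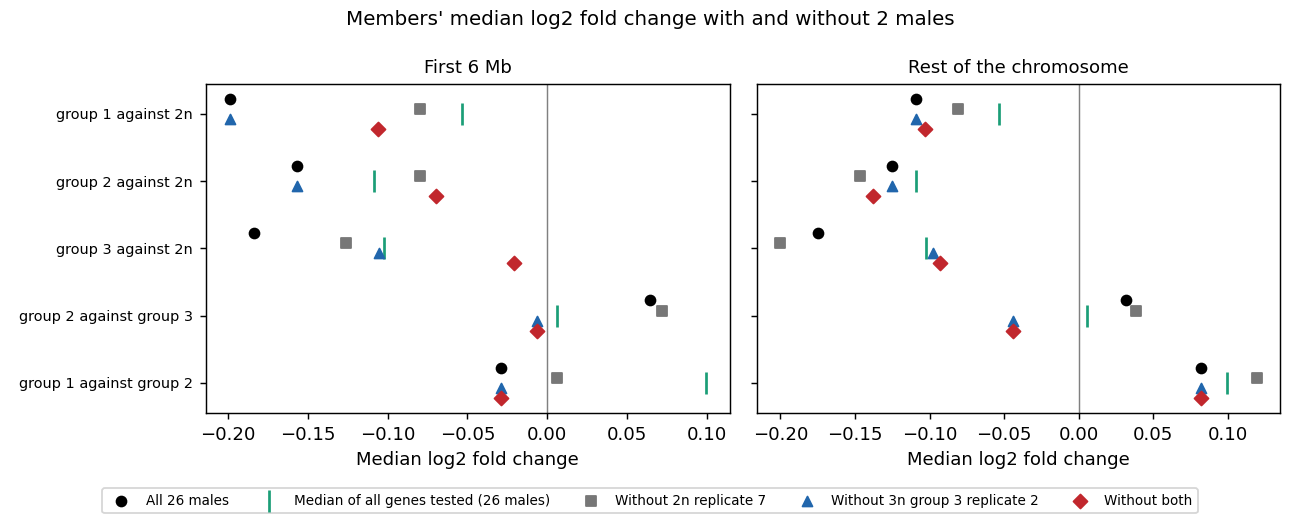
Median log2 fold change of the members per comparison for the first 6 Mb and the rest, beside the median of all genes tested (green line), with all 26 males, without 2n replicate 7, without group 3 replicate 2 and without both. In group 3 against 2n the median of the first 6 Mb goes from -0.18 to -0.02 when both males are left out.

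Called members were ranked by change only if their average level reached 1 on the log2 CPM scale. Those with lower levels were left out of the ranking. The ranked members with the largest changes in group 3 against 2n and in group 1 against group 2 all lay past 6 Mb. In group 3 against 2n, ENSCARG00000054824 (47:7564412-7650991, plus strand, 34 exons) fell by 6.14 on the log2 scale (standard error 1.40, edgeR adjusted p = 0.0013). It had 128, 58.0, 77.5 and 105 CPM in 2n replicates 1, 2, 5 and 6 and 0.274 to 0.876 CPM in the other 6 diploid males. Group 3 ranged from 0.427 to 0.734 CPM with a median of 0.492. The diploid males thus fell into separate levels, and the 4 high ones all carry the number 14 in the library name, a number that 2n replicate 7, at 0.274 CPM, also carries. With the 2n males limited to those of number 108, the log2 fold change was -0.25 (edgeR adjusted p = 0.65). In group 1 it fell by 4.38 against 2n (edgeR adjusted p = 0.013), which turned to 1.52 with that limit (edgeR adjusted p = 0.0073). The call was also lost, with a fold change of similar size, without group 1 replicates 1 and 2 (-4.57, edgeR adjusted p = 0.071) and with the 2 groups alone in the fit (-4.34, edgeR adjusted p = 0.075).

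ENSCARG00000058094 (47:10798902-10943783, plus strand, 54 exons) fell by 4.01 in group 3 against 2n (standard error 0.52, edgeR adjusted p = 2.4e-06). Levels in 2n ranged from 0.548 to 14.2 CPM with a median of 8.16, and group 3 from 0.332 to 0.734 CPM with a median of 0.383. The lowest diploid male, 2n replicate 7, lay within the range of group 3, and the next, replicate 3, had 1.10 CPM. Group 1 had 2.08, 1.78, 2.06, 2.05 and 1.02 CPM and group 2 had 0.403, 0.277, 0.514, 0.442 and 0.329 CPM, without overlap. Of the ranked members it rose most in group 1 against group 2, by 2.21 (standard error 0.61, edgeR adjusted p = 0.0053). Its levels rest on 6 to 9 fragments per library in group 2, on 7 to 15 in group 3 and on 8 in 2n replicate 7. These values are near the floor, so the sizes of both fold changes and the place of 2n replicate 7 are uncertain.

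Of the ranked members that rose in group 3 against 2n, ENSCARG00000048775 (47:8686053-8698110, plus strand, 8 exons) changed most. It rose by 2.24 (standard error 0.25, edgeR adjusted p = 2.6e-07). In the diploid males its level ran from 5.45 to 11.5 CPM with a median of 6.22, and group 3 from 24.3 to 55.5 CPM with a median of 29.4. All 6 males of group 3 were above all 10 diploid males. Group 2 had 36.2, 50.5, 51.1, 42.2 and 35.9 CPM, all in the range of group 3. Group 1 had 6.57 and 4.62 CPM in replicates 1 and 2 and 16.7, 20.4 and 20.0 CPM in the other 3. The 2 libraries of group 1 with large scaling factors lay in the range of the diploid males or below it, and the other 3 above it.

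ENSCARG00000054038 (47:7135252-7151777, minus strand, 23 exons), the gene whose level in group 3 replicate 2 was not lower, rose by 1.89 in group 3 against 2n (standard error 0.39, edgeR adjusted p = 0.00050). The 2n males ranged from 22.3 to 128 CPM with a median of 35.9, and group 3 from 121 to 304 CPM with a median of 160. The highest diploid male was 2n replicate 7, and it alone lay in the range of group 3. The 2n males also differed by the number in the library name. Those of number 14, which include replicate 7, had 38.6 to 128 CPM. Those of numbers 106 and 108 had 22.3 to 33.3 CPM. Group 2 had 208, 241, 230, 221 and 159 CPM. In group 1, replicates 1 and 2 had 13.4 and 9.87 CPM and the other 3 had 69.8, 71.6 and 73.7 CPM, so the 2 former were under every other male.

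In group 1 against group 2, the ranked member with the largest decrease was at 47:15718664-15728186 (plus strand, 6 exons). It fell by 3.63 (standard error 0.37, edgeR adjusted p = 1.0e-07). Group 1 had 1.74, 1.72, 2.35, 1.83 and 2.04 CPM and group 2 had 26.9, 25.0, 18.1, 25.8 and 23.9 CPM. Group 3, with 15.0 to 34.2 CPM and a median of 26.2, and the 2n males, with 10.3 to 65.9 CPM and a median of 32.2, were all above group 1. This gene was low in group 1 and at similar levels in the other 3 groups, and the 2 libraries with large scaling factors were like the other 3 of group 1.

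The next was at 47:9694632-9900209 (minus strand, 22 exons), which fell by 3.02 in group 1 against group 2 (standard error 0.33, edgeR adjusted p = 2.3e-07). Group 1 had 2.92, 3.15, 2.59, 3.20 and 3.10 CPM and group 2 had 22.5, 17.5, 34.4, 25.3 and 22.5 CPM. Diploid males had 4.11 to 17.1 CPM with a median of 9.50, between those of group 1 and those of group 2. Against 2n it fell by 1.82 in group 1 and rose by 1.20 in group 2 and 1.38 in group 3, with edgeR adjusted p of 5.0e-05, 0.00079 and 8.1e-05. The diploid male with the lowest value was 2n replicate 7. The 2n males did not overlap between the numbers in the library name. Those of number 14, which include replicate 7, had 4.11 to 7.56 CPM. Replicate 3, of number 106, had 11.4 CPM, and those of number 108 had 15.4 to 17.1 CPM. The sizes of the changes against 2n thus rest on the mix of these males.

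After ENSCARG00000058094, the ranked member that rose most in group 1 against group 2 lay at 47:6877490-6883144 (plus strand, 9 exons). Its change was 1.79 (standard error 0.41, edgeR adjusted p = 0.0014). Group 1 had 26.8, 26.8, 24.7, 17.8 and 23.3 CPM and group 2 had 8.10, 7.39, 5.73, 6.38 and 6.82 CPM, without overlap. The 2n males ranged from 0.988 CPM in replicate 2 to 23.8 CPM with a median of 10.9. Group 3 ranged from 5.06 to 8.51 CPM with a median of 7.30. The change of 1.05 in group 1 against 2n (edgeR adjusted p = 0.018) did not pass with the 2 groups alone in the fit (1.10, edgeR adjusted p = 0.074), with the 2n males limited to number 108 (0.46, edgeR adjusted p = 0.055) or without group 1 replicates 1 and 2 (0.93, edgeR adjusted p = 0.12). Without 2n replicate 2, the male at 0.988 CPM, it passed as lower against 2n in group 2 (-0.88, edgeR adjusted p = 0.0065) and group 3 (-0.86, edgeR adjusted p = 0.0037), which it did not with all males (-0.74 and -0.72, edgeR adjusted p = 0.11 and 0.085).

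The member with the most counts in the first 6 Mb lay at 47:4171248-4184714 (minus strand, 19 exons). Diploid males ranged from 175 to 680 CPM with a median of 259, and 2n replicate 7 was the highest. Group 1 had 31.5, 36.8, 326, 347 and 424 CPM, group 2 had 469, 487, 424, 416 and 375 CPM, and group 3 ranged from 292 to 604 CPM with a median of 348. The groups overlapped, and it passed the test in 0 of the 5 comparisons.

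The member with the most counts in the rest lay at 47:10458298-10475203 (minus strand, 33 exons). The 2n males ranged from 520 to 1813 CPM with a median of 1305, group 3 from 1344 to 2295 CPM with a median of 1956, and the lowest of group 3 was replicate 2. It rose by 0.61 in group 3 against 2n (standard error 0.21, edgeR adjusted p = 0.021), a call that was lost without group 3 replicate 3 (0.55, edgeR adjusted p = 0.054). Group 1 had 339, 790, 1151, 1141 and 1014 CPM and group 2 had 1815, 1533, 1715, 1740 and 1824 CPM, without overlap. It fell by 0.96 in group 1 against group 2 (standard error 0.26, edgeR adjusted p = 0.0052), and by 0.64 without group 1 replicates 1 and 2, when it no longer passed (edgeR adjusted p = 0.056).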

How the data were processed

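Testis RNA was selected by poly(A), from extracts with an RNA integrity number above 7, and read as 150 bp pairs from stranded libraries with molecular identifiers, per the labels' protocols. Per the submitters' processing notes, the tools were STAR 2.7.3a, cutadapt 4.3, Subread 2.0, featureCounts, Picard 2.25.6, FastQC and MultiQC 1.10.1, in no stated order. The authors deposited raw counts of fragments per gene, made with featureCounts 2.0.6 over exons of the goldfish annotation ASM336829v1, reverse stranded, with a minimum mapping quality of 0 and fragments of 1 to 25000 bp, per the file headers. Mapping of gibel carp reads to goldfish, and reads shared by near-identical gene copies, could change the level of single genes, and the sources used here do not say whether duplicates were removed by identifier. Coordinates are those of that annotation.

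CPM is the count over the library total times 1e6, and levels per male are CPM scaled by TMM. Deviations used log2 CPM with a prior count of 2. Groups were compared with edgeR 4.0.16 (limma 3.58.1, R 4.3.3): TMM, filterByExpr with a minimum count of 10, a robust quasi-likelihood fit with the 4 groups as terms, and Benjamini-Hochberg adjustment. The same steps were tested on simulated data. Alternatives were DESeq2 1.42.0, other scalings, no filter, fits of the compared groups alone, library-name subsets, a block for the replicate number and leaving out each male. No libraries were identical. The closest pair, group 2 replicates 1 and 2, differed by a chi-square of 3.94 per gene, and every library was counted as 1 sample.

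Genes with values in the text were the most abundant member of each stretch and the members ranked highest by change. The latter were the 2 with the largest change in each direction for group 3 against 2n and group 1 against group 2. They were ranked among called members whose average level reached 1 on the log2 CPM scale. Called members with lower levels were not ranked. Genes picked later are marked so. The members and lists were chosen with earlier results of these data known. Of the annotated gene identifiers, 0 matched the 98729 genes of a RefSeq table of the gibel carp, so marker lists of testis, ovary and blood cells had no members that could be found and gave no values. No genome sequence was used here, so no gene sequence is printed.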

Additional observations from a re-analysis of the deposited data

Results flagged for a closer look

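In 13 measures over the 4 groups, which hold 5 to 10 males, 10 of 52 sets of values had a lowest or highest male whose gap to the nearest other passed Dixon's 95% critical value. Of the 10, 6 are values for which the chromosome was chosen, and they are given as a description to which no chance rate applies. The median deviation of the first 6 Mb stood apart in 2n replicate 7 (0.58) and in group 3 replicate 2 (-0.49), and that of the rest stood apart in group 3 replicate 2 (-0.49). The share of raw counts from the first 6 Mb stood apart in the same 2 males, with 0.605% in 2n replicate 7 and 0.264% in group 3 replicate 2. The share from the rest stood apart in group 3 replicate 2 with 0.551%. These 6 values come from 2 libraries and are not independent of each other.

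The other 4 were levels of single genes. The usual rate of about 1 in 20 sets by chance assumes normal values. These levels were not on a log scale, and most of the genes were picked for large changes in these data, so that rate is not applied. In 2n replicate 7, ENSCARG00000054038, which lies past 6 Mb, had 128 CPM and ENSCARG00000026123, a member of the stretch that was higher in this male and so no independent value, had 680 CPM. For ENSCARG00000054038, the other 2n males of library-name number 14 also lay above those of numbers 106 and 108. ENSCARG00000054824 had 0.734 CPM in group 3 replicate 5, a level that rests on 15 fragments. ENSCARG00000058094 had 1.02 CPM in group 1 replicate 5, under the other 4 males of that group.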

How the results depend on the processing

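Depth limits the members with few counts, and DNA copy number, cell makeup and the meaning of the library-name numbers were not analysed. The number of called members stayed within 1.5 times in all but 3 cases. In group 1 against 2n it went from 115 to 65 with the 2 groups alone in the fit, and to 62 without group 1 replicates 1 and 2. In group 1 against group 2 it went from 156 to 85 without those 2 males. Leaving out these 2 males, or 2n replicate 7 and group 3 replicate 2 together, was chosen after seeing the data. Leaving out 1 male at a time gave 81 to 132 members for group 1 against 2n, 129 to 170 for group 1 against group 2, 90 to 142 for group 2 against 2n, 125 to 162 for group 3 against 2n and 0 to 0 for group 2 against group 3. Over all genes, the number called in group 1 against 2n went from 13558 to 7354 with the 2 groups alone and to 6893 without group 1 replicates 1 and 2. It went from 18526 to 12173 in group 3 against 2n with group 3 limited to number 11, and from 19761 to 10936 in group 1 against group 2 without group 1 replicates 1 and 2. The causes were not tested.

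The median deviation of group 3 replicate 2 in the rest was -0.52 when taken over members with a reference log2 CPM over 3, and that of 2n replicate 7 in the first 6 Mb was 0.62 against all other 25 males. Leaving out each reference male gave -0.496 to -0.480 and -0.489 to -0.478 for group 3 replicate 2, and 0.548 to 0.578 and -0.106 to -0.0874 for 2n replicate 7, in the first 6 Mb and the rest. Of 24 called results of named genes, 7 lost their call under at least 1 alternative, and 1 turned, ENSCARG00000054824 in group 1 against 2n, to 1.52.

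Same-numbered males of different groups had deviations that correlated over 0.1 in 6 of 31 pairs (-0.52 to 0.30). In 9 of 62 cases a male correlated best with its own number. The labels do not say that the replicate number pairs males, and these values cannot show what such males share. With a replicate block, called members numbered 92, 104, 125, 0 and 165 in group 1, group 2 and group 3 against 2n, group 2 against group 3 and group 1 against group 2. For group 1 and group 2 against 2n, these were 27.1% and 30.6% of members, beside 28.8% and 29.2% of all genes. For the other comparisons no all-gene share is given here, and their counts are not read against the genome. The block also ended the calls of ENSCARG00000048775 in group 1 against 2n (0.88, edgeR adjusted p = 0.083) and of ENSCARG00000055515 in group 3 against 2n (0.62, edgeR adjusted p = 0.051).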
